A study of Saccharomyces cerevisiae with 30 samples.

Results

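In budding yeast, 208 regions of the genome carried signal from replication forks in hydroxyurea (HU) when mrc1-AQ and cdc45-2A were combined, and little in the wild type. They were chosen from a table of 60303 running windows, each 2 kb wide and starting every 200 bp. For each window the 2 replicates of the double mutant in the HU block, and likewise those of the wild type, were averaged and divided by their mean over all windows. A window was a member where the double mutant reached at least 1 times the mean window, the wild type at most 0.5 times, and the double mutant at least 4 times the wild type. This held for 2984 of the 60303 windows (4.95%), and members that overlapped or touched were joined into the 208 regions. The values of those 4 libraries therefore chose the regions, and are given below only as a description.

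The signal is that of TrAEL-seq, which maps DNA 3′ ends and mostly captures the leading strand at replication forks, so that forks stalled in many cells give a local maximum. The strains were mrc1-AQ cdc45-2A pol1-1A (the triple mutant), mrc1-AQ cdc45-2A (the double mutant), pol1-1A and the wild type, which carries none of the 3 alleles. In mrc1-AQ the sites that the checkpoint kinases Mec1 and Tel1 phosphorylate are lost, in cdc45-2A the sites through which Cdc45 binds the kinase Rad53 are changed to alanine, and pol1-1A reduces the binding of Rad53 to the polymerase alpha subunit Pol1. All 4 strains were arrested in G1 phase, released into 200 mM HU (the HU block), and then freed of HU for 20 or 40 minutes, with 2 biological replicates per strain and time, which makes 24 libraries. Another 6 libraries came from asynchronous wild type cells without HU, added to each pool as shares of 1 preparation per replicate number. The triple mutant shares mrc1-AQ and cdc45-2A with the strain on which the regions were chosen. No sample carries mrc1-AQ or cdc45-2A alone, so the parts of these 2 alleles cannot be told apart.

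Replication starts at many origins, from which a pair of forks moves apart. HU inhibits ribonucleotide reductase and so depletes the nucleotides that forks need. Forks then stall near origins that fire early, and the checkpoint, acting through Mec1, Mrc1 and Rad53, keeps origins that would fire later from firing. Mrc1 and Cdc45 travel with the replisome, and both are partners of Rad53 there. No list of origins was used here, so the regions are described by their position, by the genes beneath them and by their signal.

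Depth ranged over 2974768 to 10460920 mapped reads in the 24 libraries, with 102 to 1212 reads in the median window, and over 317539 to 1333846 reads in the asynchronous libraries. All values below are the signal of a window divided by the mean window of the same library (relative signal), so 1 is the average of the genome. In the HU block the median window was 0.220 and 0.158 in the triple mutant, 0.407 and 0.282 in the double mutant, 0.580 and 0.156 in pol1-1A, and 0.403 and 0.259 in the wild type. The pol1-1A libraries in HU were the pair of replicates that correlated least across windows (r = 0.827, against 0.916 to 0.990 in the 11 other groups). Libraries of 1 time and replicate number were prepared as 1 pool.

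The regions covered 988.4 kb, or 8.19% of the 12071.3 kb of the windowed genome. They were 2 to 11.8 kb long (median 4.6 kb), and 13 of them were a single window. Neighbouring summits (the member window of each region with the highest double mutant signal) lay 2.8 to 303.2 kb apart, with a median of 36.4 kb. At the summits the double mutant averaged 1.00 to 5.83 (median 2.16) and the wild type 0.0836 to 0.497 (median 0.308), a ratio of 4.01 to 16.1 (median 7.53).

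Every chromosome held some of them. Chromosome IV, the longest, held 23, and XV and XVI held 21 each, while III held 2. As a share of length the regions covered most of chromosome XIV (11.5%), followed by XVI (11.1%), XI (10.3%) and VIII (10.1%). They covered least of chromosomes III (1.90%), XII (5.79%), VII (5.99%) and VI (6.00%). Near chromosome ends they were sparse, since 7 of 208 summits (3.37%) lay within 30 kb of an end, against 7.99% of all windows. The deposited signal leaves out repeats, subtelomeric ones included, and the part of that in the count was not tested. The midpoint of the summit fell outside annotated genes at 64 regions (30.8%), against 26.7% of all windows with reads. A tRNA gene overlapped the summit window at 21 regions (10.1%), against 4.65% of all windows with reads. Windows are counted here although neighbours overlap, and these shares are a description.

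The members nearest the limits of the rule show how it cuts a continuous range. On chromosome IV the window at 1401401 to 1403400 was just inside with 1.00 in the double mutant, and on chromosome XVI the window at 161201 to 163200 was just outside with 0.999. The wild type limit passed between 0.4995 (chromosome XIII, 609801 to 611800, with 3.06 in the double mutant) and 0.5002 (chromosome XI, 329201 to 331200, with 4.25). The limit on the ratio passed between 4.01 (chromosome XV, 518401 to 520400) and 3.997 (chromosome IV, 752001 to 754000).

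The choice can be read in the replicate it did not use. Applied to replicate 1 alone the rule gave 207 regions, of which 152 summits (73.4%) also met it in replicate 2, with a median ratio there of 6.91. Applied to replicate 2 alone it gave 210 regions, of which 149 summits (71.0%) met it in replicate 1, with a median ratio of 7.36. The double mutant was above the wild type in the other replicate at all 207 and all 210 summits, against 40.7% and 33.4% of all windows with reads. The replicates shared 2276 member windows, which is 73.1% of those of replicate 1 and 76.3% of those of replicate 2.

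The regions were divided by what lay beside them. The mean pol1-1A signal in HU was read within 5 kb to each side of a summit, a library group the rule had not used, and a side was called flanked where it reached 1. This split was made after the data had been seen, and it cuts a continuous range. There were 132 isolated regions with no such signal on either side, 63 flanked regions with it on both sides, and 13 with it on a single side. With a limit of 2 in place of 1, 39 regions were flanked. Isolated regions were long (median 6 kb) and moderate, with a median double mutant signal of 1.69 and a median wild type signal of 0.244, and held 2376 of the 2984 windows. Flanked regions were short (median 3 kb) and strong, with medians of 3.65 (double mutant) and 0.445 (wild type). All 7 summits within 30 kb of a chromosome end were isolated. A tRNA gene lay in the summit window of 11 flanked regions (17.5%) and 9 isolated ones (6.82%), and the midpoint was outside genes in 41.3% of flanked and 25.0% of isolated regions.

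The label under which these regions were chosen, signal in the double mutant alone, did not hold once the triple mutant was read. In the HU block the median over the 208 summits was 2.27 and 2.23 in the triple mutant, against 0.317 and 0.408 in pol1-1A. The double mutant, which chose the regions, had 2.28 and 2.11, and the wild type 0.334 and 0.292. The triple mutant reached the mean window at 197 and 191 of the 208 summits in its 2 libraries, and pol1-1A at 0 and 3. Of all windows with reads, 24.2% and 23.8% reached it in the triple mutant, and 27.4% and 19.5% in pol1-1A. The 3 summits of pol1-1A replicate 2, singled out after their values were seen, lay at MET10 and SMC2 on chromosome VI, at TIM18 and MUM3 on chromosome XV, and at RRP15 and NOC4 on chromosome XVI.

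Both triple mutant libraries were above both pol1-1A libraries at 208 of 208 summits, where 18.2% of all windows with reads were. In one limma fit of all 24 libraries, on log2(relative signal + 0.01), all 208 summits were called higher in the triple mutant (adjusted p under 0.05 over 57647 windows), where 15.1% of all windows were called higher and 27.3% lower. The log2 difference ran from 1.54 to 3.77 with a median of 2.74, while the median over all windows was -0.78. The medians of isolated (2.64) and flanked regions (2.93) are a description, since both sets were cut on the signal of these pol1-1A libraries beside the summits, low in isolated and high in flanked regions. Leaving out any 1 library left 206 to 208 called.

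**Figure D1:**
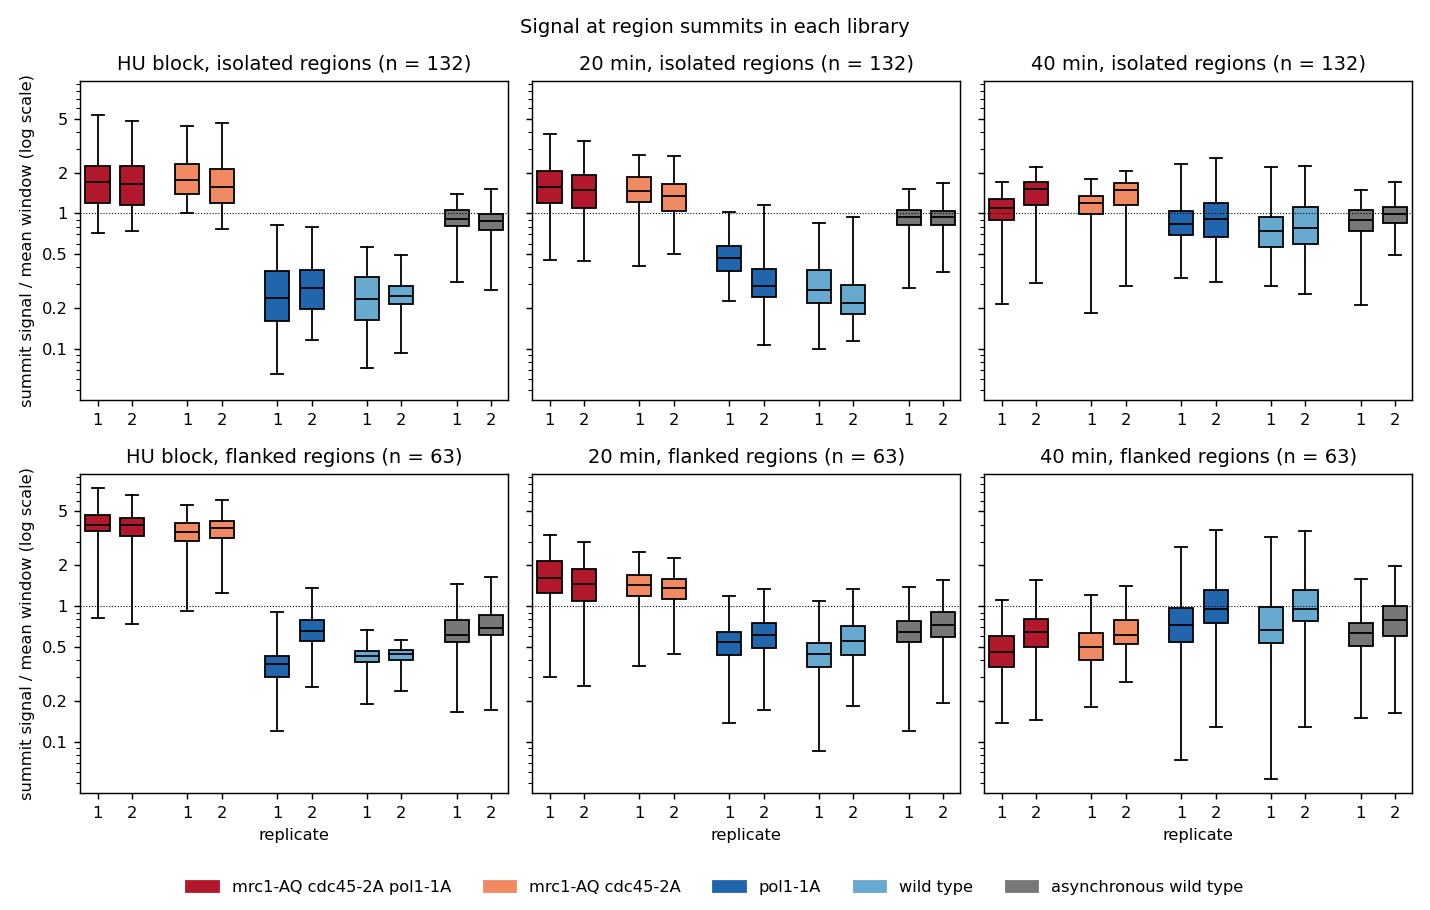
Relative signal at the summits of the 132 isolated (top) and 63 flanked (bottom) regions in each library, on a log scale, at the HU block, 20 and 40 minutes. Boxes span the quartiles with the median, and whiskers run to the lowest and highest region. The triple and double mutant boxes lie above pol1-1A and wild type in HU and at 20 minutes, and at 40 minutes their medians lie above in isolated regions and below in flanked ones (triple mutant medians 1.31 and 0.557, as means of 2 libraries).

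The 8 strongest summits in the double mutant were mostly flanked. The strongest stood on chromosome XV at 489201 to 491200, over YVC1 (a vacuolar cation channel), VPS21 (an endosomal GTPase) and PTC5 (a mitochondrial phosphatase). In HU it measured 7.09 and 6.32 in the triple mutant, 5.59 and 6.09 in the double mutant, 0.407 and 0.954 in pol1-1A, and 0.361 and 0.453 in the wild type. The triple mutant libraries were far above those of pol1-1A, whose replicates themselves differed widely here, and the log2 difference was 3.40 ± 0.35 (SE, limma adjusted p = 2.4e-07). At 20 minutes the same window had 1.74 and 1.46 in the triple mutant, 1.56 and 1.51 in the double mutant, 0.579 and 0.774 in pol1-1A and 0.461 and 0.792 in the wild type. By 40 minutes it was below the mean window in all 8 libraries, at 0.440 and 0.621 in the triple mutant, 0.543 and 0.685 in the double mutant, 0.632 and 0.872 in pol1-1A and 0.653 and 0.986 in the wild type. Asynchronous cells had 0.518 to 0.698 there in their 6 libraries.

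On chromosome XVI, at 818401 to 820400, the summit lay between RRP15 and NOC4, which both act in ribosome assembly, over a tRNA gene. It had the highest triple mutant value of a single library, 7.39 with 6.39 in the other replicate, against 0.347 and 1.36 in pol1-1A. The double mutant had 5.35 and 5.89 and the wild type 0.488 and 0.378. The groups did not overlap, though pol1-1A varied widely between its replicates (log2 difference 3.30 ± 0.39, SE, limma adjusted p = 9.9e-07).

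The summit on chromosome VI, at 216201 to 218200, over MET10 (a sulfite reductase subunit) and SMC2 (a condensin subunit), showed the order of the strains turning round. In HU it had 6.54 and 6.63 in the triple mutant, 5.51 and 5.71 in the double mutant, 0.913 and 1.12 in pol1-1A, and 0.665 and 0.304 in the wild type. At 20 minutes it had 1.90 and 1.75 in the triple mutant, 1.43 and 1.40 in the double mutant, 1.12 and 0.829 in pol1-1A, and 0.957 and 0.796 in the wild type. At 40 minutes the triple mutant had 0.433 and 0.789 and the double mutant 0.476 and 0.605, against 2.74 and 3.65 in pol1-1A and 3.24 and 3.61 in the wild type. The mutants with mrc1-AQ and cdc45-2A were thus higher first and lower last, with no overlap of libraries at either time. The 40 minute difference between double mutant and wild type was the lowest of the 208, at -2.65 ± 0.30 on the log2 scale (SE, limma adjusted p = 1.4e-05), and that between triple mutant and pol1-1A was -2.42 ± 0.30 (adjusted p = 4.1e-06).

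A similar course was seen on chromosome XII at 622601 to 624600, over CSC1, ARV1 and GPN3. The triple mutant had 5.18 and 5.66 in HU and 0.434 and 0.639 at 40 minutes, while pol1-1A had 0.556 and 0.724 in HU and 1.94 and 2.60 at 40 minutes. The wild type had 2.10 and 2.77 at 40 minutes, against which the double mutant, at 0.430 and 0.609, was lower by a log2 difference of -2.22 ± 0.25 (SE, limma adjusted p = 1.3e-05).

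The other strong summits were at PAM16 and SNR37 on chromosome X (227201 to 229200), at TRM13, a tRNA methyltransferase gene, on chromosome XV (83201 to 85200), and at SNF2, which encodes the ATPase of the SWI/SNF remodeller, on chromosome XV (855201 to 857200), the last with signal on a single side. Their triple mutant values in HU were 5.48 to 6.30, against 0.385 to 0.945 in pol1-1A. The largest difference between triple mutant and pol1-1A was at MRS3, a mitochondrial iron carrier gene, on chromosome X (160001 to 162000), with 4.21 and 4.14 in the triple mutant against 0.193 and 0.453 in pol1-1A (log2 3.77 ± 0.33, SE, limma adjusted p = 7.1e-08).

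The strongest isolated summit lay on chromosome XIII at 159601 to 161600, over SML1, which encodes an inhibitor of ribonucleotide reductase, and CMP2, a calcineurin subunit gene. In HU it had 5.30 and 4.76 in the triple mutant, 4.43 and 4.67 in the double mutant, 0.565 and 0.794 in pol1-1A, and 0.469 and 0.331 in the wild type. At 40 minutes it had 0.770 and 1.11 in the triple mutant, 0.731 and 0.858 in the double mutant, 1.81 and 2.54 in pol1-1A, and 1.87 and 2.24 in the wild type. It was 1 of 5 isolated regions called lower in the double mutant than in the wild type at 40 minutes (log2 -1.36 ± 0.31, SE, limma adjusted p = 0.0031). The highest mean pol1-1A signal in HU beside this summit was 0.705 on the left and 0.711 on the right, under the limit of the split, and its double mutant change at 40 against 20 minutes was -1.46 ± 0.31 on the log2 scale (SE, limma adjusted p = 0.00086).

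The longest regions were isolated, and the longest of all spanned several maxima in the triple mutant in HU. On chromosome IV, the 11.8 kb from 744601 to 756400 had their summit over SWI5, a transcription factor gene of late mitosis. It had 2.06 and 1.99 in the triple mutant and 2.14 and 1.96 in the double mutant, against 0.231 and 0.390 in pol1-1A and 0.231 and 0.321 in the wild type. At 20 minutes it had 2.07 and 2.04 in the triple mutant and 1.96 and 1.74 in the double mutant, against 0.438 and 0.275 in pol1-1A and 0.205 and 0.181 in the wild type. At 40 minutes it had 1.70 and 2.09 in the triple mutant and 1.81 and 2.04 in the double mutant, against 0.979 and 1.03 in pol1-1A and 0.756 and 0.780 in the wild type. Unlike the flanked summits, this window held its level in the mutants with mrc1-AQ and cdc45-2A through 40 minutes. The difference between double mutant and wild type was 3.20 ± 0.29 at 20 minutes (SE, limma adjusted p = 3.0e-08) and 1.31 ± 0.29 at 40 minutes (adjusted p = 0.0025).

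On chromosome VI the region from 64201 to 73000 (8.8 kb) had its summit in RIM15, which encodes a kinase of the entry into quiescence. There the triple mutant had 1.53 and 1.71 in HU, 1.59 and 1.58 at 20 minutes and 1.14 and 1.63 at 40 minutes. In pol1-1A the same window had 0.138 and 0.220 in HU, 0.338 and 0.283 at 20 minutes and 0.717 and 0.841 at 40 minutes. The libraries did not overlap at any time, and the log2 difference narrowed with time from 3.14 ± 0.32 over 2.32 ± 0.32 to 0.80 ± 0.32 (SE, limma adjusted p = 2.2e-07, 5.1e-06 and 0.046). The 10.0 kb region on chromosome IV from 229401 to 239400, with its summit between VCX1 (a vacuolar calcium exchanger) and PCL2 (a cyclin), did not share the late difference. It had 1.01 and 1.46 in the triple mutant at 40 minutes, against 1.25 and 1.21 in pol1-1A. Nor did it hold its level in the double mutant, with 2.30 and 2.09 at 20 minutes and 0.918 and 1.15 at 40 minutes. That log2 change was -1.09 ± 0.30 (SE, limma adjusted p = 0.0067).

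**Figure D2:**
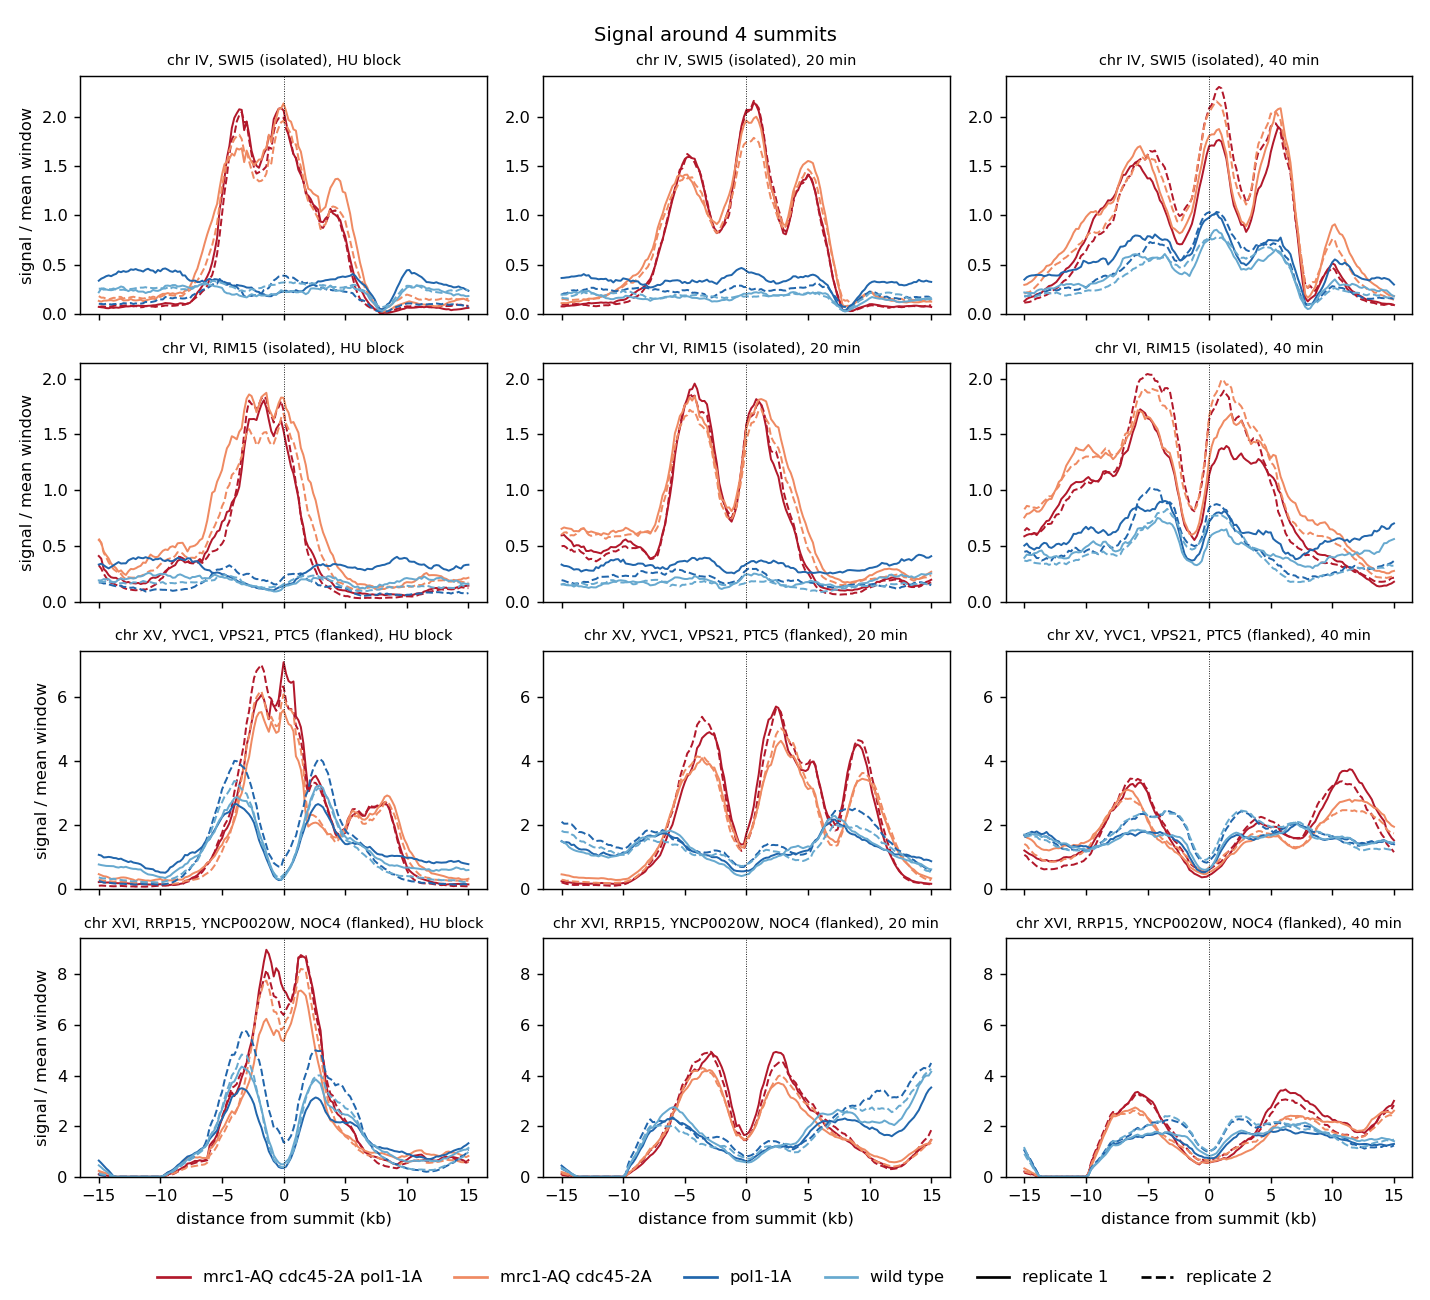
Relative signal in 2 kb windows against distance from the summit (kb) at 2 isolated regions (SWI5, RIM15) and 2 flanked regions (YVC1 and RRP15), in HU and at 20 and 40 minutes, with 1 line per library. In HU the triple and double mutant fill the gap between a pair of pol1-1A and wild type maxima at the flanked regions, with 7.09 and 6.32 in the triple mutant at the YVC1 summit, and stand alone at the isolated ones. The stretch near 0 left of the RRP15 summit holds almost no signal in any library.

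The weakest triple mutant summits were still above pol1-1A. At HUL5, a ubiquitin ligase gene on chromosome VII (240401 to 242400), the triple mutant had 0.718 and 0.748 against 0.173 and 0.130 in pol1-1A, and at FIG2, a mating adhesin gene on chromosome III (270401 to 272400), 0.733 and 0.794 against 0.0942 and 0.160. The HUL5 call was lost when only the libraries compared were fitted (adjusted p = 0.054). At a tRNA gene beside YJL113W, a retrotransposon gene, on chromosome X (203001 to 205000) the triple mutant had 0.819 and 0.743 against 0.121 and 0.255. That window held 3 bins of 200 bp with no read in any library, and its call was lost in windows that do not overlap (log2 0.52, adjusted p = 0.57). In all, 4 of the 208 summits (1.92%) held such an empty bin, against 6.62% of all windows. The smallest difference in HU was at MPF1 on chromosome XIV (353201 to 355200), with 1.24 and 0.933 in the triple mutant against 0.498 and 0.265 in pol1-1A (log2 1.54 ± 0.33, SE, limma adjusted p = 0.0011).

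The shape of the signal was read for each set. Around the midpoints of flanked regions, with both sides averaged, the mean HU signal was highest at 1.6 kb in all 4 triple and double mutant libraries (4.34 and 4.50 in the triple mutant, 3.77 and 4.22 in the double mutant). In all 4 pol1-1A and wild type libraries it was highest at 3.2 kb (2.12 and 3.11 in pol1-1A, 2.46 and 2.65 in the wild type). At the midpoint itself the triple mutant had 3.37 and 3.22, against 0.291 and 0.487 in pol1-1A. In these averaged profiles the maxima thus lay nearer the midpoint in the triple and double mutants than in pol1-1A and the wild type. An average over sides and regions does not show a pair of maxima at each region. The rule asks for a low wild type and a high double mutant in the same window. The split asks for pol1-1A signal on both sides of a summit. Both favour this arrangement, so the profile in those strains is a description.

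After release these maxima at first lay farther out in every strain. At 20 minutes they were at 2.8 and 3.0 kb in the triple mutant and 3.2 and 3.4 kb in the double mutant, against 7.0 and 8.4 kb in pol1-1A and 7.0 and 7.8 kb in the wild type. At 40 minutes they were at 5.8 kb in both triple mutant libraries and 6.8 and 6.6 kb for the double mutant. In pol1-1A and the wild type the profile had by then lost its clear outer maximum, with its highest value, 1.55 to 1.94, at 3.0 to 4.2 kb. The positions are those of 2 kb windows read in steps of 200 bp over 63 regions, and no test was made on them.

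Isolated regions, by the way they were set apart, lacked pol1-1A signal beside them. In HU the mean triple mutant signal was highest at 0 and 1.0 kb from the midpoint (1.58 and 1.51) and the double mutant at 1.2 kb in both libraries (1.55 and 1.41), against 0.2495 and 0.221 in pol1-1A and 0.206 and 0.216 in the wild type at the midpoint. At 20 minutes the maxima were at 2.2 kb in the triple mutant (both libraries) and at 2.4 and 2.6 kb in the double mutant, and at 40 minutes at 4.6 and 3.6 kb in the triple mutant and 4.8 and 3.4 kb in the double mutant. Their height hardly changed, at 1.42 to 1.68 after 20 and 1.498 to 1.58 after 40 minutes. In pol1-1A and the wild type the highest value within 15 kb lay at that outer limit in HU and at 20 minutes. At 40 minutes it lay at 3.4 and 2.4 kb in pol1-1A (0.986 and 1.00) and at 3.2 and 2.6 kb in the wild type (0.879 and 0.902).

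**Figure D3:**
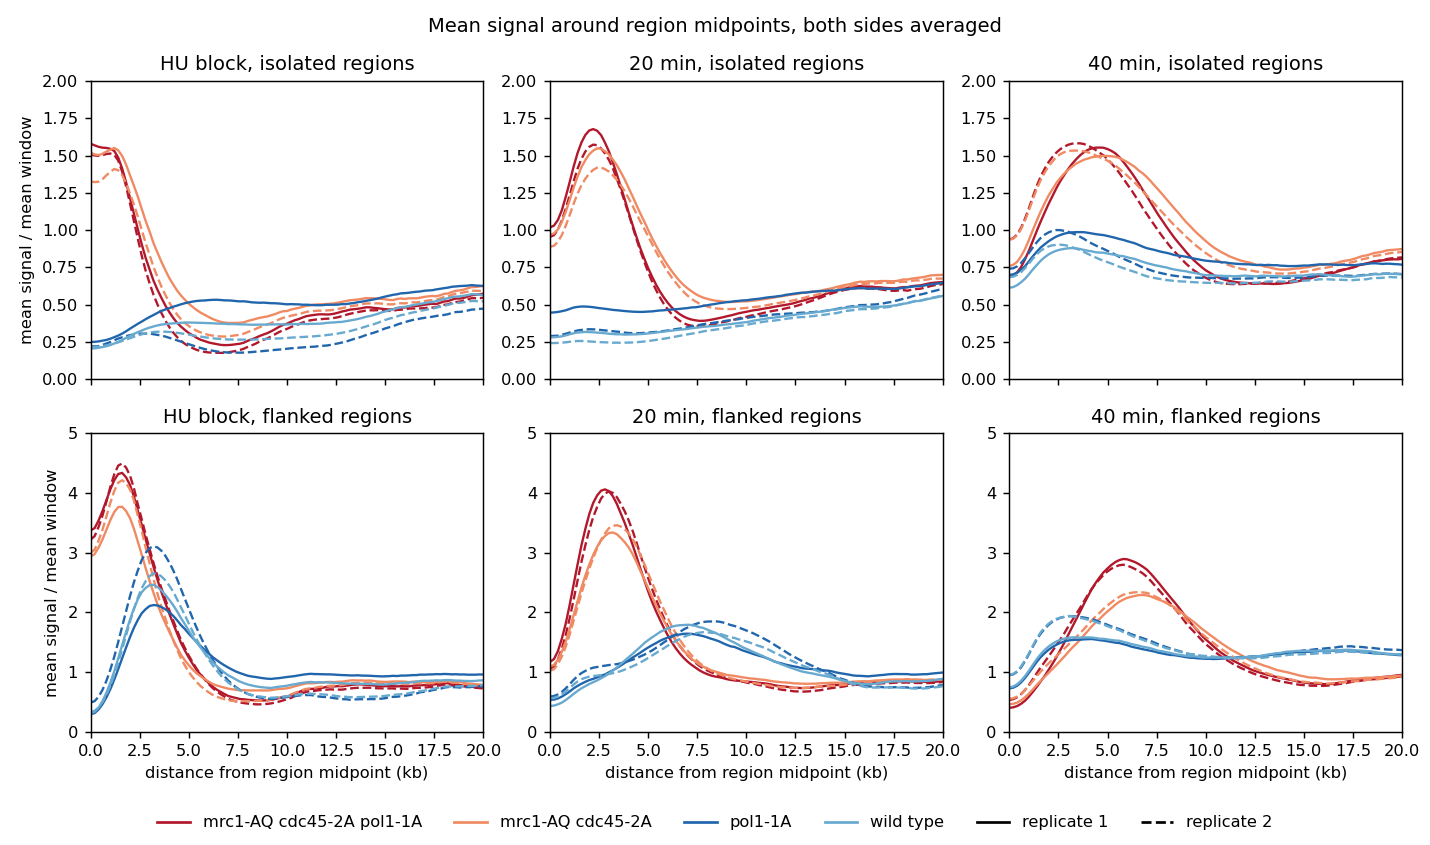
Mean relative signal against distance from the region midpoint (kb, both sides averaged) for 132 isolated (top) and 63 flanked (bottom) regions, in HU and at 20 and 40 minutes, with 1 line per library (solid replicate 1, dashed replicate 2). In flanked regions the HU maximum is at 1.6 kb in the triple and double mutants and at 3.2 kb in pol1-1A and wild type, and in isolated regions the triple and double mutants have a maximum in HU where pol1-1A and wild type lie below 0.26 at the midpoint.

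At 20 minutes the summits were still set apart by strain. The median over the 208 summits was 1.60 and 1.47 in the triple mutant and 1.46 and 1.36 in the double mutant, against 0.497 and 0.390 in pol1-1A and 0.342 and 0.302 in the wild type. The double mutant was called higher than the wild type at 188 summits and lower at 1 (limma), where 28.9% of all windows were called higher and 16.1% lower, with a median log2 difference of 2.17 (all windows 0.07). The triple mutant was called higher than pol1-1A at 189 summits and lower at 0, where 25.9% and 40.1% of all windows were, with a median of 1.83 (all windows -0.66). At an unadjusted p under 0.05, 191 summits passed in this second comparison.

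Of the isolated regions 126 of 132 were called higher in the double mutant (median 2.49), and of the flanked ones 55 of 63 (median 1.46). The single summit called lower in the double mutant, named after its value was seen, was at YLR036C on chromosome XII (midpoint 221000), which has pol1-1A signal on a single side (log2 -0.90, limma adjusted p = 0.0078). The double and triple mutant comparisons share no library. They do share the 2 pools of that time.

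At 40 minutes the calls ran in both directions. Over all 208 summits the double mutant was called higher than the wild type at 62 and lower at 25, where 22.9% of all windows were called higher and 15.5% lower, so that the whole list lay near the background. Among the isolated regions 61 were called higher and 5 lower (median log2 0.75), with medians over summits of 1.34 ± 0.216 for the double mutant and 0.761 ± 0.026 for the wild type (SD, n = 2). Among the flanked regions 1 was called higher and 17 lower (median -0.61), with 0.558 ± 0.085 for the double mutant and 0.810 ± 0.205 for the wild type (SD, n = 2). The median over all windows was 0.21. The count fell to 19 (5 higher, 14 lower) without double mutant replicate 2, and to 47 (26 higher, 21 lower) and 46 (31 higher, 15 lower) without wild type replicate 1 or 2, so that the excess of higher calls rests on double mutant replicate 2. edgeR on recovered reads called 62 higher and 14 lower. The difference between the sets in this contrast was not tested.

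The largest difference at 40 minutes was at ERD2, MIN6 and URA7 on chromosome II (142001 to 144000), an isolated region where the double mutant had 0.817 and 1.12 against 0.290 and 0.294 in the wild type (log2 1.68 ± 0.39, SE, limma adjusted p = 0.0032, and 0.058 without double mutant replicate 2). The 5 isolated regions that were lower, the SML1 summit among them, lay at PFF1 on chromosome II, at SUA5, HUR1 and PMR1 on chromosome VII, at YCK2 on chromosome XIV, and at YOR019W, HSP10 and MCO10 on chromosome XV. The 1 flanked region that was higher was the tRNA gene beside YJL113W with empty bins, at 0.181 and 0.276 in the double mutant against 0.0537 and 0.129 in the wild type (adjusted p = 0.041). These, too, were picked out by their values.

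The triple mutant was set against pol1-1A in the same way. It was called higher at 39 summits and lower at 29, where 20.4% and 23.2% of all windows were (median log2 0.19, all windows -0.06). Neither count over the whole list stood above the background. With the pool as a block the counts were 62 and 43, and with edgeR on recovered reads 73 and 11. Of the isolated regions 39 were called higher and 7 lower (median 0.55), and of the flanked ones 0 and 19 (median -0.57). The set medians in the triple mutant were 1.31 ± 0.297 in isolated and 0.557 ± 0.132 in flanked regions, against 0.873 ± 0.045 and 0.837 ± 0.161 in pol1-1A (SD, n = 2). Leaving out 1 library changed which direction had more calls. Lower calls outnumbered higher ones without triple mutant replicate 2 or either pol1-1A replicate, and higher calls outnumbered lower ones without triple mutant replicate 1.

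**Figure D4:**
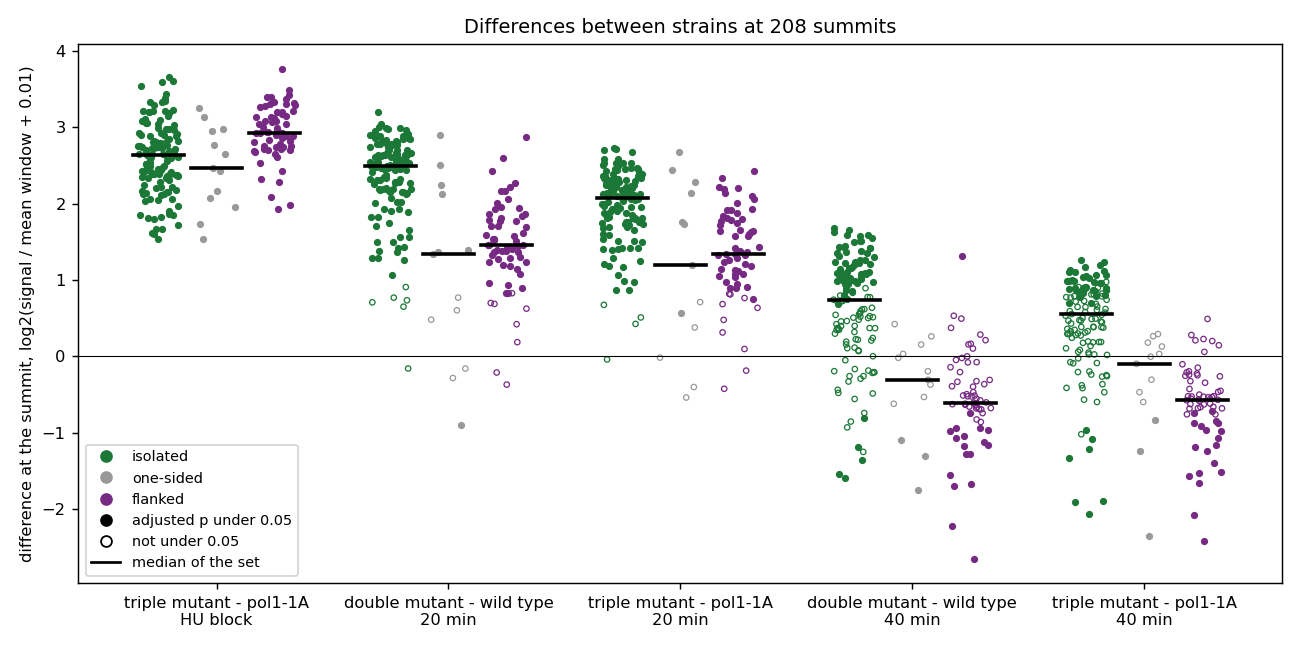
Log2 difference at each of the 208 summits for 5 comparisons of strains, by set (isolated green, single side grey, flanked purple), with filled points for an adjusted p under 0.05 and bars at the medians. All 208 points lie above 0 in HU (1.54 to 3.77), and at 40 minutes the median of isolated regions is above 0 (0.75 and 0.55) and that of flanked regions below (-0.61 and -0.57).

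The triple and the double mutant could be compared at 40 minutes. Their medians over the summits were 0.912 and 1.23 in the triple mutant and 0.998 and 1.19 in the double mutant. No summit was called different, neither by limma at the adjusted threshold nor at an unadjusted p under 0.05, nor by edgeR, and 0% of all windows were called, while a limma fit of the compared libraries alone called 1 summit, lower in the triple mutant, and 28.8% of all windows. The log2 difference ran from -0.72 to 0.36 (median -0.02, all windows -0.21). The difference between the double mutant's contrast to wild type and the triple mutant's contrast to pol1-1A at 40 minutes was likewise called at 0 summits by limma (0 at an unadjusted p under 0.05, 0 by edgeR, and 0% of all windows), with a median of 0.13 (all windows 0.33). With 2 libraries per group these counts do not show that the strains act alike.

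Within strains the change over time is given by set as counts, and the difference between the sets was not tested. In the triple mutant 61 summits were called lower at 20 minutes than in HU and 0 higher (limma), where 8.2% of all windows were lower and 23.4% higher. Each summit is the window of highest double mutant HU signal in its region, and the triple mutant was high there too. That choice favours a fall after HU in both the triple and the double mutant. All windows are therefore not a like background for the falls given here, and the part of the choice in the counts was not tested. Flanked summits started from the higher level in HU. Of the 61, 51 were flanked, with set medians of 1.54 ± 0.125 at 20 minutes against 3.96 ± 0.025 in HU (SD, n = 2), 8 had signal on a single side and 2 were isolated. Isolated regions had 1.53 ± 0.067 at 20 minutes against 1.67 ± 0.030 in HU. With quantile normalization 12 summits were called lower. In the double mutant from 20 to 40 minutes 74 summits were called lower and 0 higher (all windows 16.9% and 22%), of which 56 were flanked and 13 isolated, and the count was 34 without double mutant replicate 1 at 40 minutes, and 45 and 46 without replicate 1 or 2 at 20 minutes.

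The wild type moved the other way over those 20 minutes. It was called higher at 40 than at 20 minutes at 162 summits and lower at 2, where 34.7% and 15.5% of all windows were. The medians over the summits were 0.743 and 0.887 at 40 minutes, against 0.342 and 0.302 at 20 minutes. Of the isolated regions 123 of 132 rose, and of the flanked ones 31 of 63. The 2 that fell, named for that reason, were at RRN6 on chromosome II and at YLR036C on chromosome XII. The median log2 change was 1.43, with 0.69 over all windows, and with quantile normalization, which removes that shift, 23 summits were called, and with edgeR on recovered reads 84. The change over these 20 minutes was called lower in the double mutant than in the wild type at 162 summits, where 17.8% of all windows were, and lower in the triple mutant than in pol1-1A at 145, where 14.4% were. These contrasts of changes were added after the data had been seen. The summits were chosen for low wild type and high double mutant signal in HU, and pol1-1A and the triple mutant had similar levels there. That choice favours a later rise in the wild type and pol1-1A and a fall in the other strains. All windows are therefore not a like background for these counts, and the part of the choice was not tested.

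In pol1-1A 23 summits were called higher at 20 minutes than in HU and 1 lower (limma), near or below the 18.1% and 11.6% of all windows. The direction of this change depended on the scaling, as edgeR on recovered reads called 1 higher and 19 lower, and the block by pool 64 higher and 3 lower. Without single libraries the count ran from 11 (without replicate 1 at 20 minutes) to 54 (39 higher and 15 lower, without replicate 1 in HU), with 46 without replicate 2 in HU and 39 without replicate 2 at 20 minutes. The median relative signal of all windows in those 2 HU libraries was 0.580 and 0.156, and its part in the result was not tested. The 1 summit called lower, at CWP2 on chromosome XI, was named for its value.

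Asynchronous cells, grown without HU, had signal somewhat under the mean window at the summits. Their 6 libraries had medians of 0.803 to 0.930 over the 208 summits, with set medians of 0.892 to 0.941 in isolated and 0.659 to 0.716 in flanked regions. The lower quartile of all windows with reads was 0.793 to 0.934 in these libraries. In each of them the median of the flanked summits lay at or below that quartile. With the 6 libraries counted as 2 preparations, the triple mutant in HU was higher than asynchronous cells at 139 summits and lower at 0 (limma, median log2 difference 1.28, all windows -2.26), where 18.3% of all windows were called higher in the triple mutant and 65.6% lower. Of these, 66 were isolated and 62 flanked, and without triple mutant replicate 2 the count was 90. pol1-1A in HU was called lower than asynchronous cells at 144 summits and higher at 0 (all windows 48.2% and 14.5%), with a median of -1.29 (all windows -1.67). The calls by set (125 isolated and 16 flanked) are a description, since the sets were cut on the signal of the same pol1-1A libraries beside the summits. That lower level rests on the scaling, since quantile normalization called 0 summits and edgeR 7 higher and 3 lower, and without asynchronous replicate 1 it was 80.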

How the data were processed

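After mapping and de-duplication the authors kept 1 nucleotide of each read, filtered repeats and deposited 1 table of signal, the reads of both strands scaled to all mapped reads (RPM), in windows of 2000 bp every 200 bp. The submitters' processing notes name Trim Galore 0.6.5, Bowtie2 2.4.1 and the R64 build, on which coordinates and RefSeq gene names rest. All values were whole multiples of 1 read (100%, largest departure 0.000634 of a read). RPM was divided by the library's mean window. limma 3.58.1 (R 4.3.3, lmFit and eBayes with trend) was run on log2(relative signal + 0.01) in 1 fit of 24 libraries and 12 groups, on 57647 windows with a mean relative signal of at least 0.1, with Benjamini-Hochberg adjustment over all of them. The added 0.01 understates log2 changes at low signal. A summit stands for its region. All 2984 members passed the filter. Comparisons with asynchronous cells came from a second limma fit on the same windows, of the triple mutant and pol1-1A in HU and 2 asynchronous preparations (each the mean of 3 libraries). Overlapping windows are not independent. The SE and p-values rest on the spread between replicates pooled over all groups of a fit, not on that of the 2 groups compared. The groups were unequal in this, as the log2 difference between replicates had an SD over windows from 0.276 (triple mutant at 20 minutes) to 1.17 (pol1-1A in HU).

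Members and lists were chosen with earlier results of these data known. Regions are named by 1 rule (the 8 highest in the double mutant, the 3 longest, the 3 lowest and 3 highest in the triple mutant, the extremes of 2 comparisons and the threshold members), apart from those said to be named for their values. Alternatives were the RPM scale, quantile normalization, another pseudocount, no filter, windows that do not overlap, the pool as a replicate block, edgeR 4.0.16 on recovered reads, fits of the compared groups alone, and single libraries left out. The labels say that libraries of 1 time and replicate number were prepared as 1 pool, so the numbers pair them, and deviations of such pairs correlated at -0.063 to 0.796 over 18 pairs. Distances to origins or centromeres were not analysed here.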

Additional observations from a re-analysis of the deposited data

Results flagged for a closer look

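The change from 20 to 40 minutes differed between strains, in a contrast chosen after seeing the data. The double mutant's change was below that of the wild type at 162 of 208 summits (limma, adjusted p under 0.05, median log2 difference -1.80), with 54 flanked and 101 isolated regions among them, against 17.8% of all windows called in that direction. The triple mutant's change was below that of pol1-1A at 145 summits (median -1.69), against 14.4% of all windows. With quantile normalization the counts were 54 and 60. In both replicates the double mutant fell while the wild type rose at 119 summits (57.2%, against 12.8% of all windows with reads), 54 of them flanked and 55 isolated. The triple mutant fell while pol1-1A rose at 130 summits (62.5%, against 12.4% of all windows with reads), 50 of them flanked and 73 isolated. The summits were chosen for high double mutant and low wild type signal in HU, which favours such opposite changes. All windows are therefore not a like background for the counts in this paragraph, and the part of the choice was not tested.

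Among the named summits, 1 asynchronous library stood apart from the other 5 at PAM16 on chromosome X (gap 0.799 of the range, lowest value 0.546) and at TRM13 on chromosome XV (gap 0.758 of the range, highest value 1.39). Chance alone singles out about 1 in 20 such groups when the values are independent, whereas these libraries are shares of 2 preparations. The high value at TRM13 came from the shallowest library (317539 reads).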

How the results depend on the processing

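Counts of called summits moved by over 1.5 times, or turned direction, under these alternatives. With quantile normalization, which removes shifts common to all windows, 3 summits were called for pol1-1A at 20 minutes against HU, 12 for the triple mutant, 23 for the wild type at 40 against 20 minutes, 0 for pol1-1A in HU against asynchronous cells, and 54 and 60 for the changes of the double mutant against wild type and the triple mutant against pol1-1A. With edgeR on recovered reads these were 20 (1 higher, 19 lower) for pol1-1A at 20 minutes, 84 for the wild type, and 10 (7 higher, 3 lower) for pol1-1A against asynchronous cells, and the 40 minute splits were 62 higher and 14 lower for the double mutant and 73 and 11 for the triple mutant. RPM as deposited gave 46 for pol1-1A at 20 minutes. With the pool as a replicate block 105 summits were called for the triple mutant at 40 minutes and 67 for pol1-1A at 20 minutes, and no other count moved by over 1.5 times. Fits of the compared libraries alone gave 108 for the triple mutant against pol1-1A at 40 minutes, 1 against the double mutant, 1 for pol1-1A at 20 minutes and 114 for the triple mutant at 20 minutes. The cause was not tested. Leaving out single libraries gave 206 to 208 (triple mutant against pol1-1A, HU), 171 to 184 and 170 to 180 (20 minutes, double and triple mutant), 19 to 62 and 24 to 34 (40 minutes), 0 to 0 for triple against double mutant and for the difference of differences, 11 to 54 (pol1-1A at 20 minutes), 43 to 53 (triple mutant at 20 minutes), 129 to 147 (wild type), 34 to 66 (double mutant), 90 to 110 and 80 to 178 (against asynchronous cells), and 121 to 152 and 106 to 155 (changes). The rule applied to single replicates gave 207 to 210 regions and 2982 to 3112 windows. Those regions were not split. With 1 pol1-1A HU library left out of the split, the same 208 regions gave 131 to 133 isolated and 63 flanked. A double mutant minimum of 1.5 left 1866 windows, a wild type maximum of 0.25 left 138 regions and 1572 windows, a ratio of 8 left 120 and 1131, and the median window as the unit left 72 and 755. With a pol1-1A limit of 2, 39 regions were flanked. Among named regions, 367 values kept their call and 29 lost it. With 2 libraries a group and as few as 102 reads in the median window, small differences cannot be seen.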
